A study of Mus musculus with 32 samples.

Results

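The 29 genes described here cover cholesterol synthesis, sterol sensing and the handling of cholesterol inside the cell. They were chosen by name, from a list of pathway genes, and all 29 are among the 18588 genes of the deposited table of gene signals. By role they comprise 8 genes of the mevalonate steps, 3 genes that lead from squalene to lanosterol, 9 genes that lead from lanosterol to cholesterol, 5 genes of sterol sensing and 4 genes of cholesterol transport and esterification.

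RNA had been sequenced from microglia of female rTg4510 and WT mice at 2, 4, 6 and 8 months of age. rTg4510 mice carry 2 transgenes, human 4-repeat tau with the P301L mutation behind a tetracycline-responsive element and a tetracycline transactivator under the CaMKIIα promoter, so that the mutant tau is made in forebrain neurons. WT animals were littermates with neither transgene, so no group carried the transactivator alone, and their strain is labelled 129/FVB F1. Microglia had been captured with CD11b MicroBeads from the pooled forebrains of several animals per library, and CD11b is also carried by other myeloid cells. Both genotypes had 4 libraries at 2 and at 6 months, and 3 that passed QC at 4 and at 8 months, so 28 of 32 libraries were used. Those that failed QC (replicate 3 at 4 months and replicate 4 at 8 months, in WT and rTg4510 alike) enter only where all 32 libraries are named. Signals are on a log2 scale, 1 per gene and library, and the medians of the 28 libraries had a median of 5.63. They are not divided by gene length, so levels are compared between libraries and not between genes.

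Cells make cholesterol from acetyl-CoA through mevalonate, the isoprenoid farnesyl diphosphate, squalene and lanosterol. Most of the enzymes are transcribed under the control of SREBP-2 (Srebf2), a membrane-bound factor that the escort protein SCAP carries out of the endoplasmic reticulum when sterols are scarce and that INSIG proteins hold back when sterols are plentiful. Cholesterol that arrives by uptake is handed out of the lysosome by NPC2 and NPC1, and SOAT1 esterifies the excess for storage in lipid droplets. Microglia take up myelin and cell debris and therefore receive cholesterol through the lysosome as well as making it.

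The RefSeq promoter table (GRCm38.p6) gave a window for 24 of the 29 genes. Windows of Fdps, Fdft1, Sqle, Stard4 and Npc1 were not analysed. Some genes have several starts, so 32 windows belong to these 24 genes. In the 250 bases before each start, 4 motifs were searched on both strands: the sterol regulatory element in the form TCACNCCAC, where N is any base, the CCAAT box CCAAT, the GC box GGGCGG and the E-box CACGTG. The sterol regulatory element was present in 1 of the 32 windows, that of Hmgcs1, and in 1.05% of all 32851 windows. CCAAT was present in 23 of the 32 windows against 33.8% of all windows, GGGCGG in 24 against 32.7%, and CACGTG in 5 against 6.02%. The windows of 5 genes are shown because Hmgcs1 is a textbook SREBP-2 target and because Npc2, Soat1, Dhcr7 and Lbr differed most between the genotypes. They lie at chr13:119690101-119690350 (plus strand, Hmgcs1), chr12:84773113-84773362 (minus strand, Npc2), chr1:156474329-156474578 (minus strand, Soat1), chr7:143829964-143830213 (plus strand, the third of 3 starts of Dhcr7) and chr1:181842402-181842651 (minus strand, Lbr), and capitals mark the 4 motifs, which do not overlap each other in these windows. The Dhcr7 window shown lies inside the annotated gene, which begins at 143823167, and holds 5 matches. The windows of its first and second starts hold 1 match each and are not shown. A match describes the letters only.
Hmgcs1: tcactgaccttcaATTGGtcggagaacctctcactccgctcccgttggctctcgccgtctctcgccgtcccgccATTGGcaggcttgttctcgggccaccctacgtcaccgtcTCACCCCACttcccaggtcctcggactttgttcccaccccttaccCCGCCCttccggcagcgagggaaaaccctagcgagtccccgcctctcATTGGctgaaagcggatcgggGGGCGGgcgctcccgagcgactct
Npc2: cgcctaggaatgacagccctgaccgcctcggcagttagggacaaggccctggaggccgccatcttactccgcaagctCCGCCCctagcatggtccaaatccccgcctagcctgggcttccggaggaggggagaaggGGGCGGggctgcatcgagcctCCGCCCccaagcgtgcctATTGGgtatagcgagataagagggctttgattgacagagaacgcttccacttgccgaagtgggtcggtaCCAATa
Soat1: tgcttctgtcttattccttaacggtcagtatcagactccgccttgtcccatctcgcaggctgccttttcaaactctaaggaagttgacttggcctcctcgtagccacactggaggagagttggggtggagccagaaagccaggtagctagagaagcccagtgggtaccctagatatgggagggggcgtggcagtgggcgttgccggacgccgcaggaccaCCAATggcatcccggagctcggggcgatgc
Dhcr7: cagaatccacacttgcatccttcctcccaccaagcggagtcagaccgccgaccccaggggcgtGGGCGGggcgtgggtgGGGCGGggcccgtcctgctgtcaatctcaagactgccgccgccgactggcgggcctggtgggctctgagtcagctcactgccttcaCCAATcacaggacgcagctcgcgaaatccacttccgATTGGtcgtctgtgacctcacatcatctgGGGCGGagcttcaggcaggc
Lbr: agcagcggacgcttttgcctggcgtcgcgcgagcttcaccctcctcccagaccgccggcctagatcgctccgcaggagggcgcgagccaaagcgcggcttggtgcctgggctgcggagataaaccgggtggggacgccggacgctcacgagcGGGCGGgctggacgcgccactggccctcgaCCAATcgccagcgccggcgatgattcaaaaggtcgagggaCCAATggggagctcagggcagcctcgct

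The labelled cell type was checked first. All 8 microglia markers on the list used were held by the table, and their mean log2 signals ranged from 6.24 for Aif1 to 13.57 for Cx3cr1. The log2 of their summed signal was lower in rTg4510 than in WT at 4 months (14.67 to 14.77 against 14.85 to 15.07), at 6 months (14.66 to 14.88 against 14.98 to 15.14) and at 8 months (14.47 to 14.58 against 14.71 to 14.97), with no overlap. Of 6 neutrophil markers, 5 were lower at 6 and at 8 months, where their summed log2 signal was 7.37 to 8.1 and 7.7 to 9.01 in rTg4510 against 9 to 10.24 and 9.89 to 10.29 in WT. The summed signal of 8 astrocyte markers was also lower at these ages, at 9.52 to 9.82 and 9.68 to 10.24 in rTg4510 against 10.24 to 10.49 and 10.39 to 11.68 in WT. Of these, 1 was higher and 2 were lower at 6 months, and 1 was higher and 3 were lower at 8 months. Such sums add linear signals, so the strongest markers weigh most. Among the astrocyte markers, Slc1a3 had a mean log2 signal of 9.57, while Gfap, Slc1a2, Aldoc, Aldh1l1 and Slc4a4 had 3.3 to 4.12. At 4 months the summed signal was also lower without overlap, with 0 single markers called, for neutrophils (8.16 to 8.9 against 9.08 to 9.99), astrocytes (9.82 to 10.08 against 10.18 to 10.52), border macrophages (10.08 to 10.35 against 10.43 to 11.22) and neurons (5.54 to 6.27 against 6.35 to 6.78). The neuron sum rests on 5 of 8 listed markers. The oligodendrocyte sum was lower at 6 months (7.61 to 7.99 against 8.27 to 8.62). Of 8 endothelial markers, 1 was higher and 3 were lower at 6 months, and 1 was higher and 1 lower at both 4 and 8 months. The endothelial sums of the genotypes overlapped at these ages. WT replicate 1 at 8 months held the highest oligodendrocyte and astrocyte sums (11.04 and 11.68, the other 27 libraries reaching 9.98 and 10.59). The part of these cell types in the results below was not tested. In RNA from pooled cells, fewer cells of a type and less RNA per cell cannot be told apart.

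The comparison at each age asked whether the pathway as a whole differed between genotypes and which of its genes did. Differentially expressed genes (DEGs) are those with a false discovery rate (FDR, Benjamini-Hochberg over all 18588 genes) under 0.05 and a change above 1.5 fold in limma's linear model, and a log2 fold change is the rTg4510 mean minus the WT mean, given with its standard error (SE). At 2 months 1 of the 29 genes was up-regulated, beside 1.58% of all genes, and 0 were down-regulated, beside 0.403%. At 4 months 2 genes were up-regulated (all genes, 9.47%) and 0 down-regulated (all genes, 4.33%). At 6 months 3 were up-regulated (all genes, 11.3%) and 1 was down-regulated (all genes, 8.54%). At 8 months 4 were up-regulated (all genes, 10.5%) and 0 down-regulated (all genes, 5.37%). From 4 months on, the up-regulated share was below the background or near it, so the number of DEGs says nothing particular about the 29 genes. Where the count of down-regulated genes was 0, the genes lower at an unadjusted p under 0.05 were Lbr at 2 months, Lbr and Ebp at 4 months, and Lbr and Npc1 at 8 months, and the moderated limma test also called 0. The median log2 fold change over the 29 genes was -0.05, 0.02, 0.11 and 0.13 at 2, 4, 6 and 8 months, and over all genes it was 0.01, -0.04, -0.04 and -0.01. The heat map of all libraries shows Npc2 and Soat1 as the rows of steady difference, with Dhcr7 and Lbr beside them.

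**Figure D1:**
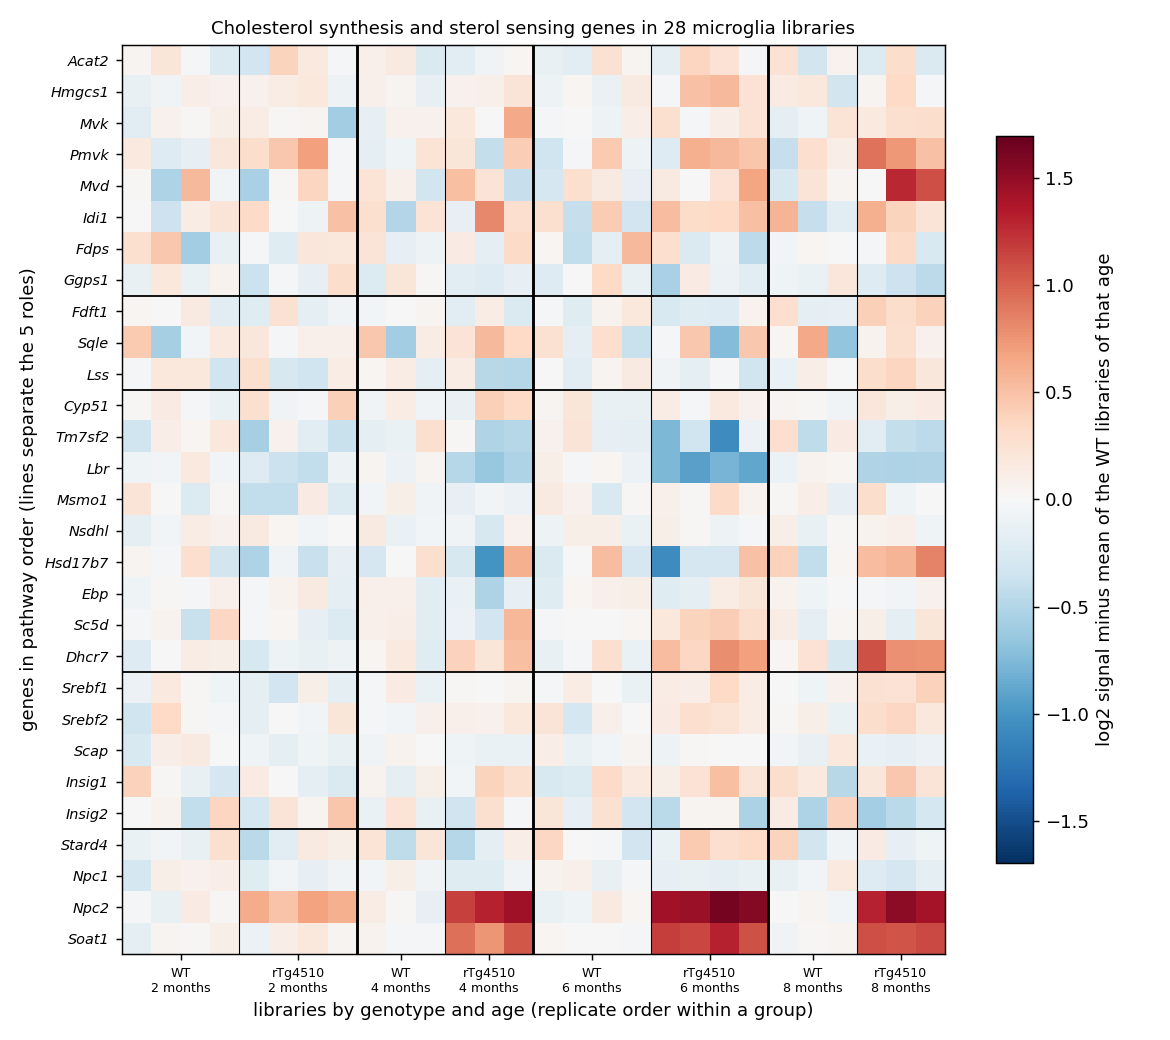
Log2 signal of the 29 genes (rows, in pathway order, lines between the 5 roles) in the 28 kept libraries (columns, by age and genotype), each minus the mean of the WT libraries of the same age. Npc2 was higher in every rTg4510 library from 2 months and Soat1 and Dhcr7 from 4 months, and Lbr was lower at each age. Dhcr7 was called at 6 and 8 months only, and Lbr at 6 months only. Most other rows overlapped between the genotypes at each age. At 8 months Pmvk, Fdft1, Lss, Cyp51, Hsd17b7, Srebf1 and Srebf2 lay above all WT libraries, and Ggps1 and Npc1 below. Of these only Pmvk was called.

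The genes of cholesterol transport and esterification held the largest differences. Npc2 (chr12:84754559-84773112 in GRCm38.p6) encodes the soluble lysosomal protein that binds cholesterol released from lipoproteins and passes it to NPC1. In replicate order its log2 signal at 2 months was 10.42, 10.27, 10.47 and 10.39 in rTg4510 and 9.75, 9.66, 9.93 and 9.8 in WT. At 6 months the values were 11.3, 11.34, 11.5 and 11.43 in rTg4510 and 9.76, 9.8, 10.02 and 9.9 in WT. Every rTg4510 library lay above every WT library at both ages, and the WT libraries hardly moved. At 4 months, where replicates 1, 2 and 4 were kept, the values were 11.04, 11.18 and 11.31 in rTg4510 and 10, 9.89 and 9.73 in WT. At 8 months they were 11.11, 11.32 and 11.22 against 9.81, 9.84 and 9.75, again without overlap. Npc2 was up-regulated at all 4 ages, with log2 fold changes of 0.60 (SE 0.0758, FDR 4.9e-05) at 2 months, 1.30 (SE 0.0875, FDR 7.04e-10) at 4 months, 1.52 (SE 0.0758, FDR 3.51e-12) at 6 months and 1.42 (SE 0.0875, FDR 1.84e-10) at 8 months. The difference at 2 months lay close to the limit of 1.5 fold, and Npc2 was not called there with all 32 libraries (FDR 0.211), after quantile normalization (log2 fold change 0.48), without rTg4510 replicate 3 or without WT replicate 2. The fit of all 32 libraries added none at 2 months, but its spread is estimated over all groups, those with failed libraries included.

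Soat1 (chr1:156428108-156474328) encodes the acyltransferase of the endoplasmic reticulum that turns free cholesterol into cholesteryl esters. Its log2 signal at 2 months was 7.6, 7.82, 7.88 and 7.75 in rTg4510 and 7.55, 7.75, 7.72 and 7.8 in WT, so that the genotypes overlapped. The log2 fold change at this age was 0.06 (95% confidence interval -0.08 to 0.19). At 4 months the 3 rTg4510 libraries stood at 8.69, 8.51 and 8.81 and the WT libraries at 7.81, 7.72 and 7.73. At 6 months the rTg4510 libraries were at 9.05, 9.01, 9.18 and 8.96 and the WT libraries at 7.9, 7.88, 7.86 and 7.85, and at 8 months they were at 8.89, 8.87 and 8.92 against 7.74, 7.82 and 7.84. From 4 months on, each rTg4510 library was above each WT library, by more than the range within either group. Soat1 was up-regulated by 0.92 (SE 0.0739, FDR 8.88e-09) at 4 months, 1.18 (SE 0.064, FDR 1.29e-11) at 6 months and 1.09 (SE 0.0739, FDR 6.69e-10) at 8 months on the log2 scale. These calls for Soat1, and those for Npc2 at 4, 6 and 8 months, were kept under every alternative tried.

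Npc1, the membrane protein of the lysosome that takes cholesterol over from NPC2, did not follow Npc2. At 4 months its log2 signal was 8.42, 8.42 and 8.56 in rTg4510 and 8.58, 8.72 and 8.57 in WT, and at 8 months it was 8.3, 8.23 and 8.37 against 8.39, 8.48 and 8.69. Every rTg4510 library lay below every WT library at both ages, by a small margin, while the genotypes overlapped at 2 and 6 months, and Npc1 was not called at any age. Log2 fold changes were -0.12, -0.16, -0.13 and -0.22 at 2, 4, 6 and 8 months, with 95% confidence intervals inside 1.5 fold at each age and FDR values of 0.0856 to 0.523. Stard4, which carries cholesterol between membranes through the cytosol, had log2 fold changes of -0.10, -0.18, 0.24 and -0.03, and its genotypes overlapped at every age.

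**Figure D2:**
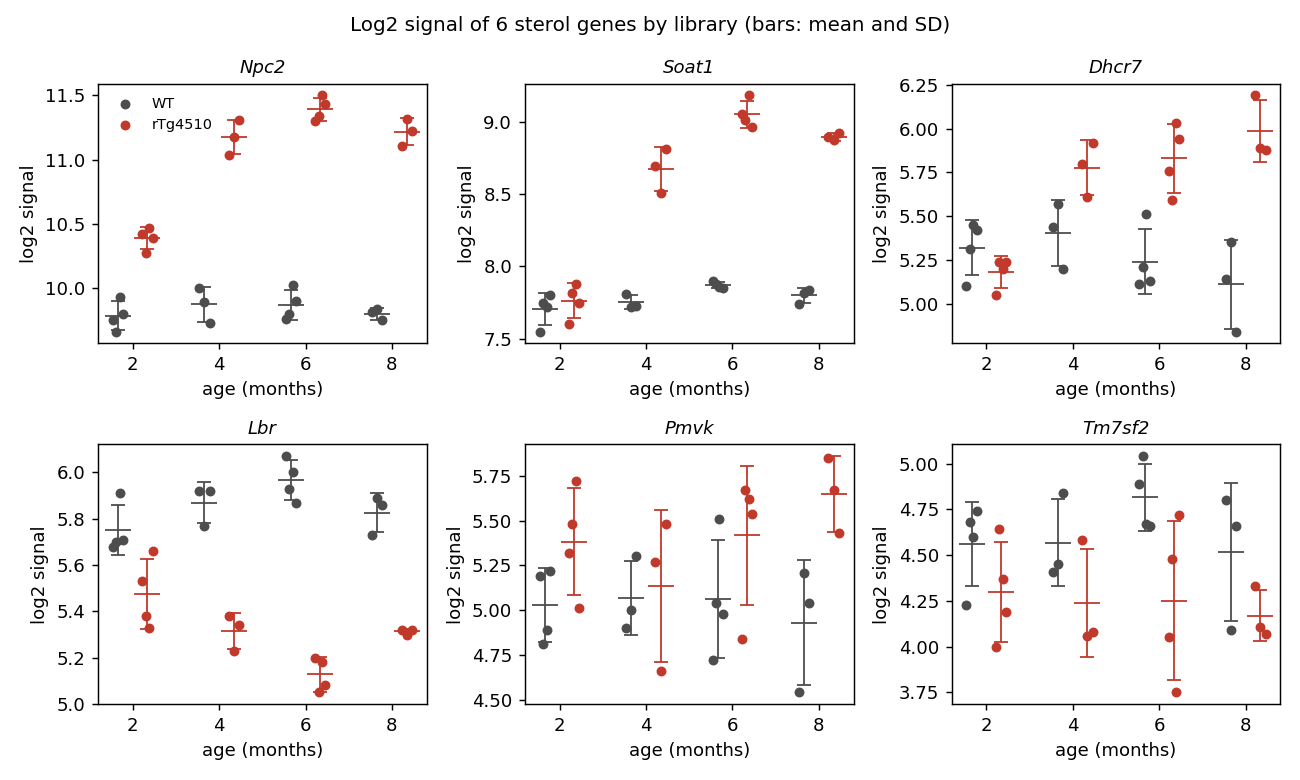
Log2 signal of Npc2, Soat1, Dhcr7, Lbr, Pmvk and Tm7sf2 (y axes, which do not start at 0) by age in months, with 1 point per library, WT in grey and rTg4510 in red, and the mean and SD of each group. Npc2 and Soat1 separate without overlap from 2 and 4 months, Lbr is lower in rTg4510 at each age, and Pmvk and Tm7sf2 spread widely within groups.

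Among the synthesis enzymes, Dhcr7 and Lbr held the clearest differences. Dhcr7 (chr7:143823167-143848410), the reductase that converts 7-dehydrocholesterol to cholesterol, had log2 signals at 6 months of 5.76, 5.59, 6.03 and 5.94 in rTg4510 and 5.11, 5.21, 5.51 and 5.13 in WT. At 8 months the values were 6.19, 5.89 and 5.88 against 5.14, 5.35 and 4.84. The genotypes did not overlap at either age, although at 6 months the lowest rTg4510 library and the highest WT library were close. Dhcr7 was up-regulated by 0.59 (SE 0.126, FDR 0.000877) at 6 months and 0.87 (SE 0.145, FDR 8.33e-05) at 8 months. At 2 months its log2 fold change was -0.14 (95% confidence interval -0.40 to 0.12), and at 4 months it was 0.37 (FDR 0.0716), with rTg4510 libraries at 5.8, 5.61 and 5.92 and WT libraries at 5.44, 5.57 and 5.2. The call at 6 months sat on the limit of 1.5 fold and was lost without rTg4510 replicate 3 or 4 or WT replicate 1, 2 or 4 (log2 fold change 0.52 to 0.68 over all alternatives), and the call at 8 months was lost where only the libraries of that age were fitted (FDR 0.0567).

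Lbr (chr1:181815315-181842401) encodes the lamin B receptor, a protein of the inner nuclear membrane whose sterol reductase domain removes the C14 double bond after the Cyp51 step. Its log2 signal at 6 months was 5.2, 5.05, 5.18 and 5.08 in rTg4510 and 6.07, 5.93, 6 and 5.87 in WT, and Lbr was down-regulated, with a difference of -0.84 on the log2 scale (SE 0.0672, FDR 2.83e-09). The rTg4510 libraries were also below all WT libraries at the other ages, at 5.53, 5.38, 5.33 and 5.66 against 5.68, 5.7, 5.91 and 5.71 at 2 months. At 4 months the libraries were at 5.38, 5.23 and 5.34 against 5.92, 5.77 and 5.92, and at 8 months at 5.32, 5.3 and 5.32 against 5.73, 5.89 and 5.86. The log2 fold changes of -0.27 (FDR 0.0148), -0.55 (FDR 1.38e-05) and -0.51 (FDR 2.62e-05) at 2, 4 and 8 months passed the FDR but stayed under 1.5 fold, so these are no DEGs by the rule used.

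Tm7sf2, the other C14 sterol reductase, pointed the same way with a wider spread. At 6 months its log2 signal was 4.05, 4.48, 3.75 and 4.72 in rTg4510 and 4.89, 5.04, 4.67 and 4.66 in WT, with 1 rTg4510 library inside the WT range. The log2 fold change was -0.57 (SE 0.204, FDR 0.0367), just under 1.5 fold, and -0.26, -0.33 and -0.35 at 2, 4 and 8 months with FDR values of 0.309 to 0.603. Tm7sf2 overlaps Vps51 in the annotation, and whether reads were assigned by strand is not given in the sources used here.

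The remaining genes between lanosterol and cholesterol were not called at any age. Cyp51, the lanosterol demethylase, had log2 fold changes of 0.15, 0.21, 0.09 and 0.14, and its 95% confidence intervals stayed inside 1.5 fold at all 4 ages. The same held for Nsdhl (0.04, -0.08, 0.00 and 0.02) and Msmo1 (-0.23, -0.09, 0.12 and 0.08), which act on the C4 methyl groups, and for the isomerase Ebp (0.01, -0.26, -0.01 and 0.00). These genes were therefore measured tightly enough to limit any difference to less than 1.5 fold. Sc5d, the desaturase before Dhcr7, reached 0.32 at 6 months (FDR 0.122) and lay between -0.09 and 0.05 at the other ages. Its genotypes did not overlap at 6 months (5.85 to 6.09 in rTg4510 against 5.64 to 5.71 in WT). Hsd17b7, the sterol ketoreductase, was the least precisely measured of the 29 genes, with an SE of 0.308 to 0.356, and its log2 fold changes of -0.28, -0.23, -0.29 and 0.65 were not called. At 8 months its genotypes did not overlap (4.87 to 5.19 in rTg4510 against 3.92 to 4.74 in WT). Those of Cyp51 also did not, by a small margin (5.71 to 5.81 against 5.55 to 5.66).

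The mevalonate steps, from acetoacetyl-CoA to the isoprenoid diphosphates, held 1 DEG in 8 genes. It was called at 8 months, where 10.5% of all genes were up-regulated, so the count says nothing particular about these steps. Pmvk (chr3:89454541-89469014), which phosphorylates mevalonate phosphate, had log2 signals at 8 months of 5.85, 5.67 and 5.43 in rTg4510 and 4.54, 5.21 and 5.04 in WT, with no overlap. It was up-regulated by 0.72 (SE 0.255, FDR 0.0422), a call that was lost in 7 of 14 alternatives, among them the fit that pairs libraries by replicate number (FDR 0.0501), the fit of all 32 libraries, and the fits without rTg4510 replicate 1 or 2 or WT replicate 1 or 3. Without WT replicate 1, the library with the highest oligodendrocyte and astrocyte sums, its log2 fold change was 0.53 (FDR 0.195). Mvd, which makes isopentenyl diphosphate, was not called at 8 months (0.79, SE 0.324, FDR 0.0832) but was called in the paired fit (FDR 0.0382), after quantile normalization (0.95, FDR 0.0427) and without rTg4510 replicate 1 (1.18, FDR 0.0082). Its rTg4510 libraries ran from 3.63 to 4.92 against 3.37 to 3.86 in WT.

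Hmgcs1, which makes HMG-CoA and is under strong SREBP-2 control, had log2 fold changes of 0.07, 0.13, 0.31 and 0.11 at 2, 4, 6 and 8 months. Its 95% confidence intervals stayed inside 1.5 fold at each age, and the highest bound was 0.56 at 6 months (FDR 0.0533), where the rTg4510 libraries were at 5.62, 6.15, 6.2 and 5.9 and the WT libraries at 5.57, 5.69, 5.54 and 5.81. Acat2 (0.04, -0.07, 0.11 and -0.05) was also limited to less than 1.5 fold, but 43.7% of the 31-base words of its transcripts occur in its near copy Acat3, and whether the authors counted such reads is not given in the sources used here. Mvk, the mevalonate kinase, lay between -0.10 and 0.27. Idi1, the isopentenyl diphosphate isomerase, lay between 0.18 and 0.42, and Fdps, which makes farnesyl diphosphate, between -0.13 and 0.10. Ggps1, which turns farnesyl diphosphate to geranylgeranyl diphosphate, lay between -0.34 and -0.06. At 8 months its rTg4510 libraries (6.75 to 6.97) were below all WT libraries (7.08 to 7.38). FDR values of these 6 genes ranged from 0.0533 to 0.982. Idi1 and Fdps share 27.1% and 27.9% of their 31-base words with other genes, among them pseudogenes, and are likewise uncertain.

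The 3 enzymes from squalene synthesis to lanosterol held 0 DEGs at each age. Fdft1, the squalene synthase, was close to WT at 2, 4 and 6 months (-0.04, -0.10 and -0.16). At 8 months its log2 signal was 6.03, 5.93 and 6.02 in rTg4510 and 5.92, 5.48 and 5.49 in WT, so the groups did not overlap but lay close, and the log2 fold change of 0.37 (SE 0.135, FDR 0.0492) passed the FDR without reaching 1.5 fold. Fdft1 lies beside Ctsb with overlapping annotation, and 17.6% of its 31-base words occur in Ctsb transcripts, so its signal is uncertain. Sqle, the squalene epoxidase, had an SE of 0.291 to 0.336 and log2 fold changes of 0.08, 0.37, 0.04 and 0.13, and its 95% confidence interval reached 1.5 fold at every age. Lss, the lanosterol synthase, lay at -0.05, -0.27, -0.15 and 0.28. At 8 months its rTg4510 libraries (4.28 to 4.45) were above all WT libraries (3.98 to 4.2), without a call.

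**Figure D3:**
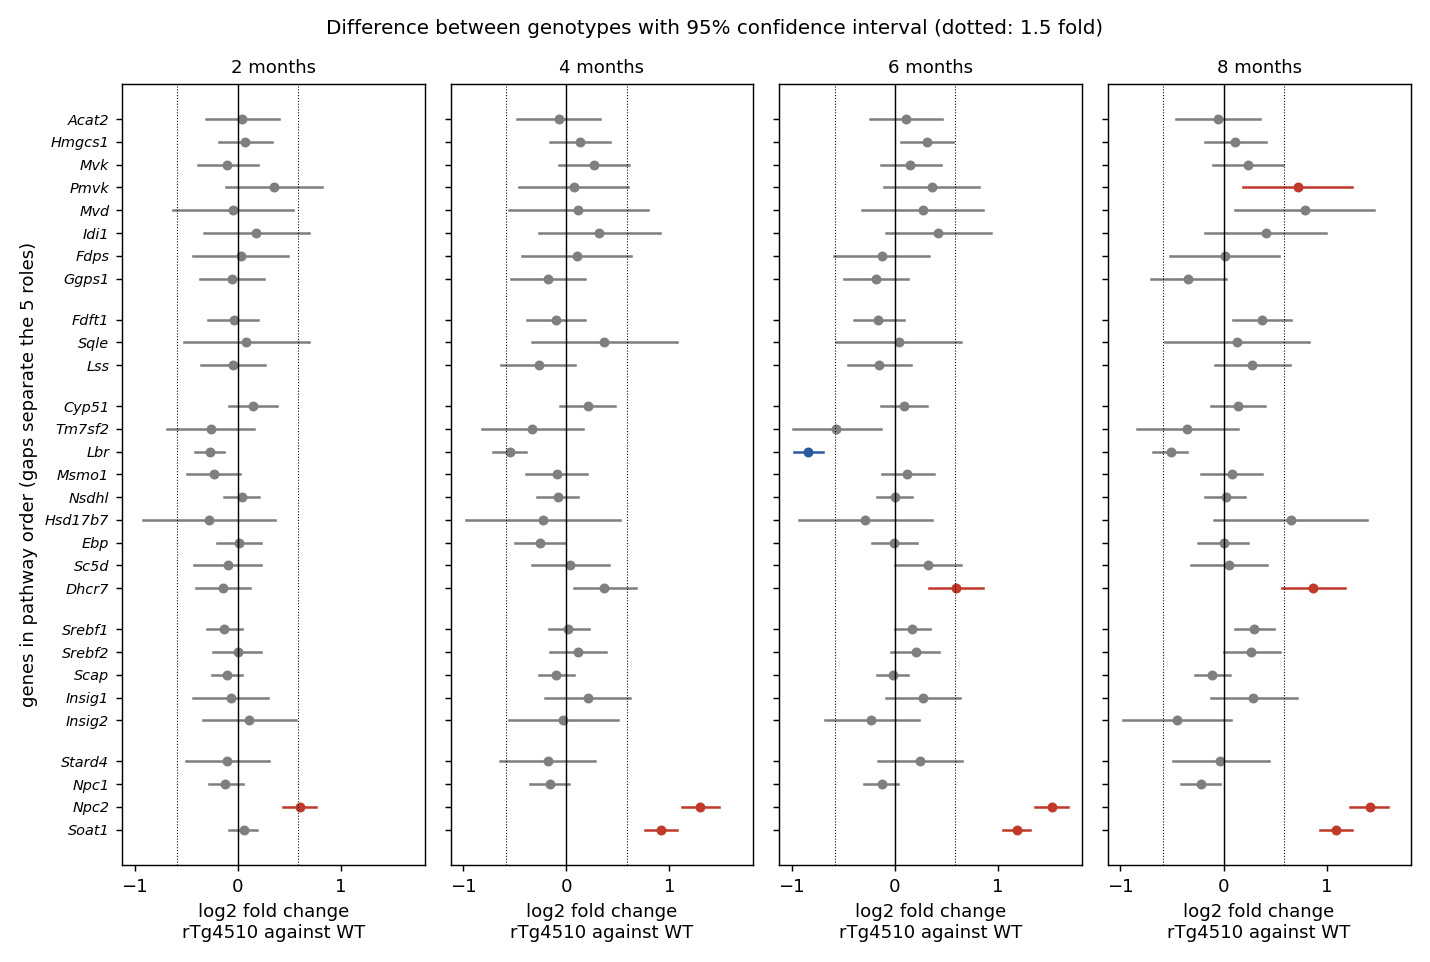
Log2 fold change of the 29 genes, rTg4510 against WT, at each age (panels), with 95% confidence intervals and dotted lines at 1.5 fold. DEGs are red where higher and blue where lower in rTg4510, and grey genes were not called. Npc2 and Soat1 lie to the right of all other genes from 4 months on, and most enzymes lie within the dotted lines.

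Over the 20 synthesis enzymes, the 95% confidence interval of the difference lay wholly within 1.5 fold for 14 genes at 2 months, 9 at 4 months, 10 at 6 months and 9 at 8 months. For 6, 11, 8 and 9 uncalled enzymes at these ages the interval reached 1.5 fold or more, so these data do not limit the difference to less than that. The median log2 fold change of the enzymes was -0.05, -0.02, 0.06 and 0.12. Every group mean of Mvd, Idi1, Fdps, Sqle and Lss lay under 4.53, the 25th percentile of mean signal over all genes. The filter on low signal therefore did not test them.

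The genes that sense sterols were not called at any age. Srebf2, which encodes SREBP-2, had log2 fold changes of 0.00 (95% confidence interval -0.24 to 0.23), 0.11, 0.20 and 0.27, and at 8 months its libraries were at 5.72, 5.78 and 5.6 in rTg4510 and 5.45, 5.52 and 5.31 in WT. These groups did not overlap, but the FDR was 0.141 and the interval (0.00 to 0.55) stayed under 1.5 fold. Srebf1, whose SREBP-1 proteins act chiefly on fatty acid synthesis, was at 5.29, 5.27 and 5.42 in rTg4510 and 5.02, 4.96 and 5.1 in WT at 8 months. Its log2 fold change of 0.30 (SE 0.0933, FDR 0.0209) passed the FDR under 1.5 fold, and in WT alone the gene fell by 0.31 from 2 to 8 months (FDR 0.0455), also under 1.5 fold. Scap, the escort protein, was the most evenly measured of these genes, with log2 fold changes of -0.10, -0.10, -0.02 and -0.11 and intervals inside 1.5 fold throughout.

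Insig1, which holds SCAP in the endoplasmic reticulum and is itself an SREBP target, had log2 fold changes of -0.07, 0.21, 0.27 and 0.29 with FDR values of 0.244 to 0.917. At 8 months its rTg4510 libraries were at 6.09, 6.36 and 6.12 and its WT libraries at 6.2, 6.06 and 5.43, with overlap. Insig2, the other INSIG gene, went to lower values at 6 and 8 months (-0.23 and -0.45, FDR 0.458 and 0.213), with overlap at both ages. Neither gene was limited to less than 1.5 fold at 6 and 8 months.

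**Figure D4:**
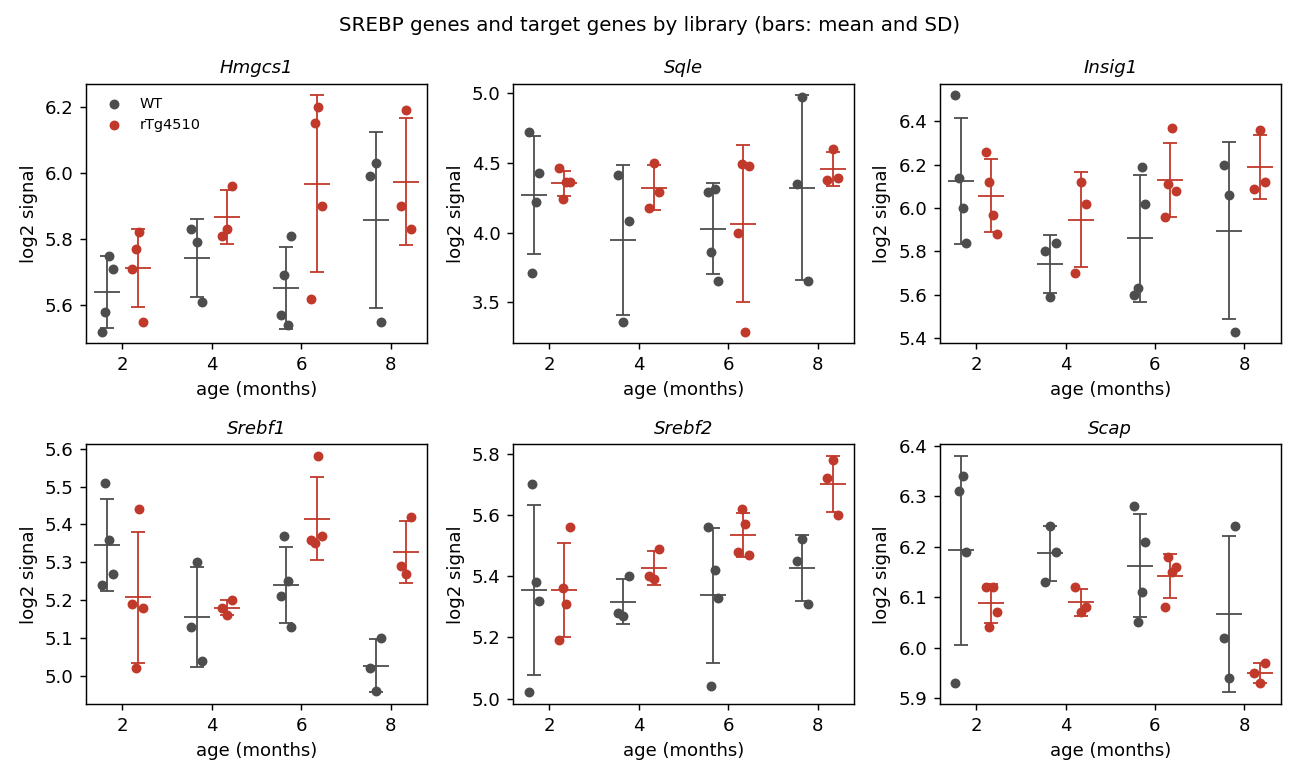
Log2 signal of Hmgcs1, Sqle, Insig1, Srebf1, Srebf2 and Scap (y axes, which do not start at 0) by age in months, with 1 point per library, WT in grey and rTg4510 in red, and the mean and SD of each group. None of the 6 genes was called at any age, and the genotypes overlap in most panels except Srebf1 and Srebf2 at 8 months and Scap at 4 months.

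It was then asked whether genes of the pathway moved together from library to library within a group. Residuals from the 8 group means over the 28 libraries gave a median correlation of 0.0123 over the 190 pairs of synthesis enzymes (-0.503 to 0.53) and 0.0468 over all 406 pairs of the 29 genes (-0.773 to 0.637). Insig1 correlated with 8 enzymes that are SREBP targets (Hmgcs1, Idi1, Fdps, Fdft1, Sqle, Lss, Cyp51 and Msmo1) at a median of 0.234 (-0.00858 to 0.381). The lowest pair was Insig1 with Npc1 (r = -0.773) and the highest Scap with Npc1 (r = 0.637). All values share 1 normalization per library, and these correlations are descriptions only.

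The next comparison asked when the differences arose, from the change of the genotype effect between neighbouring ages. Between 2 and 4 months 2 of the 29 genes changed in effect, beside 4.66% of all genes in either direction. The effect grew by 0.70 (SE 0.116, FDR 0.00065) for Npc2 and by 0.86 (SE 0.0978, FDR 9.47e-06) for Soat1 on the log2 scale. Dhcr7 (0.51, FDR 0.12) and Lbr (-0.28, FDR 0.113) did not pass. For Npc2 the growth was not called after quantile normalization, where it was 0.49. Between 4 and 6 months 0 genes passed in limma's test (all genes, 0.156%), 2 had an unadjusted p under 0.05, and the moderated test called 0. Between 6 and 8 months 0 genes passed (all genes, 0%), 2 had an unadjusted p under 0.05, and the moderated test called 0. The intervals of these later changes lay within 1.5 fold for 14 of the 29 genes in both comparisons, and for Npc2 and Soat1 they ran from -0.02 to 0.46 and from 0.06 to 0.47 between 4 and 6 months. These comparisons share the libraries of the age between them.

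Within a genotype, 8 months was compared with 2 months. In WT 0 of the 29 genes changed (all genes, 1.27%), 3 had an unadjusted p under 0.05, and the moderated test called 0. In rTg4510 3 genes rose and 0 fell (all genes in either direction, 10.5%). They were Soat1 (1.13, SE 0.0691, FDR 2.67e-10), Npc2 (0.83, SE 0.0818, FDR 2.1e-07) and Dhcr7 (0.80, SE 0.136, FDR 0.000168). The same genes in WT gave 0.10, 0.01 and -0.21 with FDR values of 0.429 to 0.948, so that over this span the signal moved in the rTg4510 libraries and was held within 1.5 fold in WT.

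Another 43 genes of sterol regulation, isoprenoid use, sterol transport and oxysterol response were counted from fixed lists. DEGs among them numbered 0 at 2 months, where 9 had an unadjusted p under 0.05 and the moderated limma test also called 0, and 4 at each of 4, 6 and 8 months (3 higher, 1 lower). Of all 18588 genes, 368, 2564, 3689 and 2950 were DEGs in either direction at 2, 4, 6 and 8 months. The 13 genes of the isoprenoid branch, which serve prenylation, dolichol and ubiquinone, held 0 DEGs at each of the 4 ages. In limma's test, 1, 2, 5 and 3 of them had an unadjusted p under 0.05 at 2, 4, 6 and 8 months. At 4, 6 and 8 months 1, 3 and 1 of them passed the FDR as higher, and 1, 2 and 1 as lower, all under 1.5 fold. Of all 18588 genes, 2625, 3555 and 2967 passed the FDR as higher at these ages, and 1692, 2777 and 1817 as lower.

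Genes of ester turnover and sterol transport are given first. Nceh1, a hydrolase that frees cholesterol from esters and so acts opposite to SOAT1, had log2 signals of 7.9, 7.75, 8.09 and 7.87 in rTg4510 and 7.17, 7.55, 7.49 and 7.2 in WT at 2 months, and of 9.42, 9.43, 9.55 and 9.47 against 7.37, 7.37, 7.65 and 7.78 at 6 months. The groups did not overlap at either age. Nceh1 was up-regulated by 1.63 (SE 0.116, FDR 1.54e-09), 1.92 (SE 0.1, FDR 6.74e-12) and 1.91 (SE 0.116, FDR 1.51e-10) at 4, 6 and 8 months, and its 0.55 at 2 months (FDR 0.0013) stayed just under 1.5 fold. Lipa, the lysosomal acid lipase that hydrolyses cholesteryl esters on arrival, was level at 2 months (-0.03, 95% confidence interval -0.18 to 0.11). At 6 months its libraries were at 8.14, 8.19, 8.26 and 8.15 against 7.53, 7.38, 7.56 and 7.55, an increase of 0.68 (SE 0.0678, FDR 6.67e-08), and at 8 months the increase was 0.74 (SE 0.0783, FDR 2.54e-07). Stard3, which tethers late endosomes to the endoplasmic reticulum and moves cholesterol between them, was lower at 6 months (6.28, 6.06, 6.2 and 6.07 against 6.87, 6.77, 6.78 and 6.83) with a log2 difference of -0.66 (SE 0.0692, FDR 1.31e-07), and at 8 months with -0.74 (SE 0.0799, FDR 3.06e-07). Its rTg4510 libraries also lay below all WT libraries at 2 months (6.39 to 6.47 against 6.51 to 6.94) and 4 months (6.03 to 6.27 against 6.67 to 6.73), where Stard3 was not called.

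Ch25h, which makes 25-hydroxycholesterol, an oxysterol that blocks SREBP processing through INSIG, had the largest change among the 43 genes. At 4 months its log2 signal was 10.44, 10.73 and 10.49 in rTg4510 and 7.28, 7.28 and 6.86 in WT, an increase of 3.41 on the log2 scale (SE 0.209, FDR 2e-10), or 10.6 fold. It was 2.32 (SE 0.181, FDR 1.8e-09) at 6 months and 2.29 (SE 0.209, FDR 3.35e-08) at 8 months, and 0.44 (FDR 0.203) at 2 months. Between 2 and 4 months the effect grew for Ch25h by 2.97 (FDR 7.62e-07), for Nceh1 by 1.08 (FDR 0.00014) and for Lipa by 0.61 (FDR 0.000854). Mylip, a ubiquitin ligase induced by oxysterol-activated LXR, was lower at 4 months by -0.64 (SE 0.0771, FDR 1.78e-06) and passed only the FDR at 6 and 8 months (-0.41 and -0.38).

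**Figure D5:**
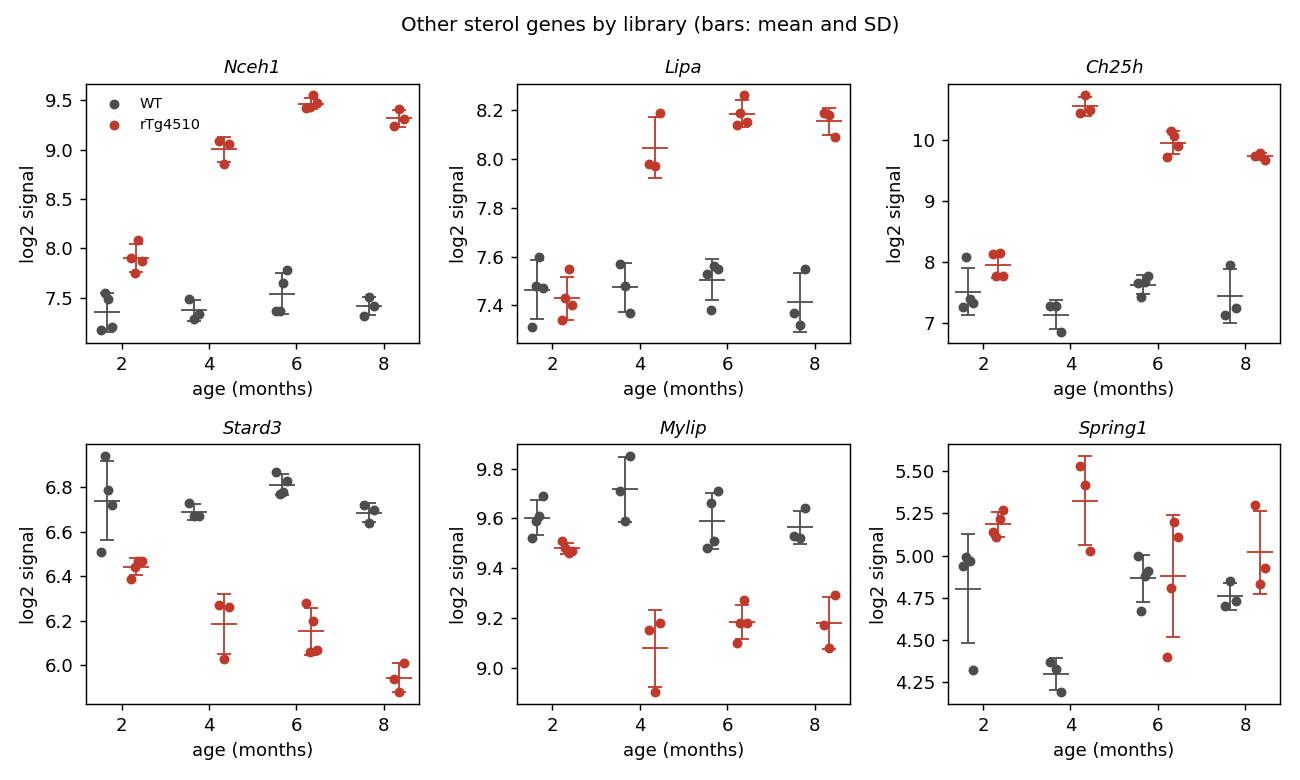
Log2 signal of Nceh1, Lipa, Ch25h, Stard3, Mylip and Spring1 (y axes, which do not start at 0) by age in months, with 1 point per library, WT in grey and rTg4510 in red, and the mean and SD of each group. Nceh1, Lipa and Ch25h lie above WT and Stard3 and Mylip below WT from 4 months on, and Spring1 lies furthest from WT at 4 months. Nceh1, Stard3 and Mylip also do not overlap at 2 months, by a small margin for Stard3 and Mylip.

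Spring1, a regulator of SREBP activation, was called at 4 months (1.03, SE 0.189, FDR 0.000315), with log2 fold changes of 0.38, 0.02 and 0.26 at 2, 6 and 8 months. Its log2 signal at 4 months was 5.53, 5.42 and 5.03 in rTg4510 and 4.37, 4.33 and 4.19 in WT. The WT mean was lower at this age (4.29) than at 2, 6 and 8 months (4.8, 4.87 and 4.76), while the rTg4510 mean was 5.32 at 4 months and 5.18 at 2 months. Its effect between 4 and 6 months changed by -1.01 (FDR 0.14).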

How the data were processed

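The authors summed exon reads per library, dropped exons of low count, fitted a robust linear model over each gene's exons, and deposited the result as median-normalized log2 signals. The submitters' processing notes name GRCm38. The aligner and annotation are not given in the sources used here. The table holds no read totals, so depth is unknown and no counting interval was computed. The lowest value of a library was 1.23 to 1.92, and 0 columns were left unused. RefSeq (GRCm38.p6) gave symbols for 17828 Entrez numbers (95.9%).

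Computed here, with limma 3.58.1 in R 4.3.3, was a linear model per gene with 8 group means, unmoderated variances and 20 residual degrees of freedom, which the study's methods guided. FDR values were Benjamini-Hochberg adjusted over all genes of a contrast. The model was tested on simulated data. Promoter windows and shared words were read with Python 3.11.15, and figures were drawn with matplotlib 3.10.9.

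The 29 genes and all lists were chosen with earlier results of these data known. All 29 genes are named. Of 43 other pathway genes, those called at 1 or more ages are named, and some items are not reported here. Groups, ages and replicate numbers came from the labels. Deviations of same-numbered libraries from their group means correlated across genes at 0.131 to 0.153 at 6 months and 0.15 to 0.291 at 8 months. By the values alone the numbers pair libraries there. At 2 months all same-number values were positive (0.0649 to 0.167), against -0.194 to 0.0816 between different numbers, so pairing there is uncertain. At 4 months the same-number values ran from -0.0999 to 0.124, and no pairing showed.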

Additional observations from a re-analysis of the deposited data

Results flagged for a closer look

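In 116 groups of 4 libraries, 1 gene and 1 group each, the highest or lowest library was tested for its gap to the others, and 5 were flagged where chance flags about 1 in 20 groups (5.8 here). WT replicate 3 at 2 months had a log2 signal of 5.91 for Lbr, with the others at 5.68 to 5.71. WT replicate 1 at 2 months had 8.15 for Npc1, with the others at 8.52 to 8.56. In rTg4510, replicate 4 at 2 months had 3.9 for Mvk (others 4.51 to 4.61), replicate 1 at 6 months had 4.84 for Pmvk (others 5.54 to 5.67), and replicate 3 at 6 months had 5.58 for Srebf1 (others 5.35 to 5.37).

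The genotype effect differed between ages for 2 genes, in the test of the difference between 4 and 2 months: by 0.70 on the log2 scale for Npc2 (FDR 0.00065) and by 0.86 for Soat1 (FDR 9.47e-06).

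The 4 libraries left out after QC enter no main comparison. In the left-out rTg4510 libraries, the genes given here lay above the WT libraries of their age, left-out WT libraries included. For Soat1 at 4 months the margin was small. In rTg4510 replicate 3 at 4 months, Npc2 stood at 12.73 (WT 9.73 to 10), beyond every kept library, while Soat1 stood at 7.85 (WT 7.69 to 7.81), below the kept rTg4510 libraries of that age. In rTg4510 replicate 4 at 8 months, Dhcr7 stood at 6.09 (WT 4.84 to 5.63), Npc2 at 11.13 (WT 9.75 to 9.88) and Soat1 at 8.88 (WT 7.74 to 7.84), each close to the kept rTg4510 libraries.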

How the results depend on the processing

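Alternatives were moderated variances, all 32 libraries, only the libraries compared, replicate blocks, quantile normalization, a filter on low signal, FDR alone, and each library left out in turn. Of 16 calls among the 29 genes, 5 were lost under 1 or more of them (Npc2 at 2 months, Dhcr7 at 6 and 8 months, Pmvk at 8 months, and the growth of the Npc2 effect), and 0 reversed. The number of up-regulated genes at 2 months was 0 with all 32 libraries and with quantile normalization, and 0 to 1 on leaving out 1 library (0 without rTg4510 replicate 3 or WT replicate 2). At 8 months it was 2 where only the libraries compared were fitted, and on leaving out 1 library it was 2 to 3 at 6 months and 3 to 4 at 8 months. Down-regulated genes at 4 months numbered 1 with all 32 libraries and 0 to 1 on leaving out 1 library (1, Lbr, without WT replicate 2). At 6 months they numbered 1 to 2, Tm7sf2 joining without rTg4510 replicate 2 or 4 or WT replicate 3 or 4. By FDR alone they numbered 1, 1, 2 and 1 at 2, 4, 6 and 8 months, up-regulated genes numbered 6 at 8 months (Fdft1 and Srebf1 joining), the change in rTg4510 from 2 to 8 months took in 4 genes (Srebf2 joining, 0.35, FDR 0.0482), the change in WT from 2 to 8 months took in 1 gene (Srebf1), and the 43 other genes held 2, 10, 14 and 9 calls. At 2 months these 43 held 0 to 2 calls on leaving out 1 library (Nceh1 without rTg4510 replicate 2 or WT replicate 2 or 3, and Ch25h without WT replicate 2). The effect between 2 and 4 months changed for 1 gene (Soat1) after quantile normalization. With the fixed replicate block the number of up-regulated genes at 8 months was 4, with Mvd (FDR 0.0382) in place of Pmvk (FDR 0.0501), and the paired fits changed no other call. The random replicate block (consensus correlation 0.106) changed no call. The fixed block was not run for 8 against 2 months, since its terms lie within an age. Of 245 uncalled combinations of gene and comparison, 10 were called under another alternative. Groups of 3 or 4 libraries set the precision, and read depth is unknown.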
